A study of Mus musculus with 42 samples.

Results

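The claudins are the membrane proteins that form the strands of the tight junction, and 9 claudin genes were followed through bulk RNA-Seq of mouse colon: Cldn1, Cldn2, Cldn3, Cldn4, Cldn7, Cldn8, Cldn12, Cldn15 and Cldn23. They were chosen by name from the 20462 genes listed in any of the 9 deposited tables, which hold 25 claudin genes in all. The study compared colon epithelium with and without functional MTG16, a transcriptional corepressor encoded by Cbfa2t3 and called Mtg16 here. There were 42 libraries in 14 groups, and each table held the libraries of 1 comparison, scaled together.

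All mice were on a C57/BL6 background and at least 8 weeks old, and were bred from heterozygous parents in separate colonies, so that each mutant had its own WT littermates. The Mtg16-/- mice lack Mtg16 in every cell, and the Mtg16T/T mice are homozygous for P209T, a substitution that weakens the binding of MTG16 to E protein transcription factors. Crypts were shaken free after chelation. Proximal and distal mean the first 5 cm from the cecum and the last 5 cm before the anus. Untreated proximal crypts gave 2 WT and 2 Mtg16-/- libraries of the null colony and 2 WT and 2 Mtg16T/T libraries of the P209T colony, and untreated distal crypts 4 WT and 4 Mtg16-/-, and 3 WT and 4 Mtg16T/T. The labels do not say whether proximal and distal libraries came from the same mice, although those of the null colony that share a name number have adjoining names, and they were treated as separate samples. Further distal crypts were taken after 5 days of 2% dextran sulfate sodium (DSS), which injures the colonic epithelium, and 4 days of water, from 3 WT and 4 Mtg16-/-, and from 3 WT and 3 Mtg16T/T. Tumors came from 3 WT and 3 Mtg16T/T mice of the P209T colony that received 10 mg/kg of the carcinogen azoxymethane (AOM) and 3 cycles of 3% DSS for 4 days and water for 16 days. The tumors were whole dissected tissue, so they held stroma and immune cells as well as epithelium, and in all of these bulk samples fewer cells of a type and less RNA per cell cannot be told apart.

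A tight junction seals the gap between neighbouring epithelial cells near their apical surface. Each claudin spans the membrane several times, and its extracellular loops pair with those of claudins on the next cell to form either a seal or a selective pore. Cldn2 and Cldn15 encode pore formers that let cations pass between cells, Cldn2 also letting water pass. Cldn1, Cldn3, Cldn4, Cldn7 and Cldn8 encode proteins generally grouped as sealing claudins. Cldn12 encodes a claudin without the usual C-terminal PDZ-binding motif, and Cldn23 one with a long C-terminal tail that is found in the differentiated cells of the luminal surface. In the colon the balance of sealing and pore-forming claudins is known to differ along the crypt and to shift in colitis.

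In the GRCm38 assembly, Cldn3 (chr5:134986214-134987472, plus strand) and Cldn4 (chr5:134945119-134946934, minus strand) are single-exon genes that lie 39279 bases apart on opposite strands. Cldn8 (chr16:88560828-88563183, minus strand) and Cldn23 (chr8:35824712-35826559, minus strand) also have 1 exon each. Cldn12 (chr5:5489537-5514958, minus strand) has 5 annotated exons, Cldn15 (chr5:136966616-136975858, plus strand) has 6, and Cldn7 (chr11:69964779-69967885, plus strand) and Cldn1 (chr16:26356642-26371841, minus strand) have 4 each. Cldn2 (chrX:139800828-139811386, plus strand) has 2. The 3' end of Cldn3 overlaps that of an antisense gene, Wbscr25.

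E proteins bind the E box, CANNTG, where N is any base. Cldn4, Cldn15 and Cldn2 were chosen from the Mtg16-/- values, since their distal groups were apart from WT once 1 doubtful library was left out. In distal Mtg16T/T crypts, where the contact between MTG16 and E proteins is weakened, all of them overlapped with WT. The bases before a RefSeq transcript start of each are shown in the gene's own direction, 5′ to 3′, with each E box in capitals. They are RefSeq sequences of the GRCm38.p6 build: 250 bases for Cldn4 (chr5:134946935-134947184, minus strand) and Cldn2 (chrX:139800558-139800807, plus strand), and 225 for Cldn15 (chr5:136967619-136967843, plus strand). The Cldn15 start used by RefSeq lies inside the gene as given above, and the last bases before it are annotated as UTR of another transcript and are not printed.
Cldn4: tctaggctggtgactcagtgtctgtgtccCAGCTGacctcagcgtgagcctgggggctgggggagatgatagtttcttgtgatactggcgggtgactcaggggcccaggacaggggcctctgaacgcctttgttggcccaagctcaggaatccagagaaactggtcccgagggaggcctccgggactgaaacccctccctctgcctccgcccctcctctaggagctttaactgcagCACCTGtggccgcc
Cldn15: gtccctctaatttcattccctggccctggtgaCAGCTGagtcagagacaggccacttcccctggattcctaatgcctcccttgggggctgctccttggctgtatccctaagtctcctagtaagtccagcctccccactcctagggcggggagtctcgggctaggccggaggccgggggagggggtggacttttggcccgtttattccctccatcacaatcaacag
Cldn2: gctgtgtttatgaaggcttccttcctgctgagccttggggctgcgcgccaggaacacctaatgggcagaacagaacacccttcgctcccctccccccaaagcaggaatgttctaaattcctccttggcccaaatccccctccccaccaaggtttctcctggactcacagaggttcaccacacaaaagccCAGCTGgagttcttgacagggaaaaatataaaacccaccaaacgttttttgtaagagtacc
The Cldn4 stretch held 2 E boxes, of which the one nearer the gene reads CAGGTG on the other strand. The first one in it, and the single ones printed for Cldn15 and Cldn2, are CAGCTG. A second CAGCTG of the 250-base Cldn15 window reaches into the bases left out. Such matches were common: of 32851 RefSeq promoters, 66.2% held CANNTG in the 250 bases before the start, 13.0% held CAGCTG and 17.2% held CAGGTG, counting both strands and counting the last 2 motifs within the first. Of the 9 claudins, 7 had a promoter in the reference, and those of Cldn3 and Cldn12 held no E box in that window. The Cldn1 promoter held 2 E boxes there. The Cldn7 promoters held 0 and 4, the latter in a window that overlaps a Cldn7 exon. A match is a description of the letters, not evidence of binding.

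Epithelial marker genes summed to 17491 to 21949 reads scaled to a common library total (RPM) in the untreated WT crypts, and Cdh5, a marker of endothelium, lay between 0 and 10.1 normalized counts in crypts and between 2160 and 3109 in tumors. Where whole reads could be recovered, in 38 libraries, depth ran from 32231389 to 74661887 reads (median 46659626), so that every claudin except Cldn1 was read many times in each library. Cbfa2t3 was lower in Mtg16-/- than in WT in proximal crypts (630.6 to 1057 against 1634 to 3221 normalized counts) and after DSS (427.0 to 595.5 against 1845 to 2519). In untreated distal crypts it was 424.4 to 694.2 in 3 Mtg16-/- libraries, 1095 in the library labelled distal Mtg16-/- replicate 2, and 1027 to 1809 in WT. That library went against its label in segment: Hoxd13, a homeobox gene of the hindmost gut, was at 0 there and at 3576 to 6654 in the other distal libraries of the table. Hoxb13 was at 244.9 against at least 17409 in the others, and Hoxb6 at 2883 against at most 64.2, whereas the 4 proximal WT libraries had 0 for Hoxd13 and 1854 to 3091 for Hoxb6. These markers were picked after their values were seen, and the distal Mtg16-/- results are given with and without this library. Its Cbfa2t3 level lay within the distal WT range, just above the highest proximal Mtg16-/- value and below every proximal WT value. The proximal and distal values come from separately scaled sets, and the genotype of this library was not tested. In Mtg16T/T, which makes full-length protein, no such fall is implied by the label, and the Cbfa2t3 range lay above that of WT in 3 tables and within it after DSS at 2956 to 3125 against 2244 to 3126.

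By reads, Cldn7 and Cldn3 had the most claudin transcript in every crypt group, and Cldn7 and Cldn4 in tumors. Across tables, levels are given as RPM and are a description, since the tables were scaled separately. The 9 claudins together made up 1523 to 2639 RPM of a library. In the crypt groups, Cldn3 and Cldn7 accounted for 68.3% to 77.4% of that sum. In tumors their share was 52.9% in WT and 53.8% in Mtg16T/T, and Cldn4 made up 28.6% and 23.2%, against 0.868% to 3.13% in crypts.

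Per kilobase of transcript, the order in WT distal crypts of the null colony began with Cldn7 at 629 ± 44.4 and Cldn3 at 467 ± 40.5 RPM per kilobase (SD, n = 4). Cldn8 (82.8 ± 24.1), Cldn2 (64.1 ± 3.85) and Cldn15 (43.1 ± 6.39) followed, with Cldn8 and Cldn2 within their spread. Cldn12 (21.8 ± 0.828) and Cldn23 (20.7 ± 4.18) could not be separated, Cldn4 was at 14.8 ± 2.02, and Cldn1 at 0.0104 ± 0.0166 was near no reads. In WT proximal crypts of the same colony (n = 2) Cldn7 and Cldn3 again led, but the pore formers Cldn15 (125 ± 2.2) and Cldn2 (95.9 ± 32.5) came next and Cldn8 (8.9 ± 7.21) was below Cldn4 (16.3 ± 3.7) and Cldn12 (14.3 ± 0.776), with the values of these 3 within their spread. In WT tumors (n = 3) Cldn4 reached 301 ± 66.6, which could not be separated from Cldn3 at 303 ± 84.6, and Cldn15 at 7.08 ± 1.34 was lowest but for Cldn1.

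Cldn4, a sealing claudin, was at 406.1, 621.2 and 609.8 RPM in WT tumors and at 331.1, 322.5 and 476.7 in Mtg16T/T tumors. In the 12 crypt groups its mean ran from 17.6 ± 4.88 (WT proximal of the P209T colony, n = 2) to 73.9 ± 19.0 (Mtg16-/- after DSS, n = 4). Every tumor library was above every crypt library, whereas the WT and Mtg16T/T tumors overlapped. Cldn1 was also higher in every tumor library than in any crypt library, at far lower levels, with 1.75 ± 0.930 in WT tumors and 2.51 ± 2.47 in Mtg16T/T tumors, and means of at most 0.158 in crypts. Cldn15 ran the other way, from 237 ± 4.19 in WT proximal crypts of the null colony down to 60.3 ± 14.9 in distal Mtg16T/T crypts and 13.5 ± 2.54 in WT tumors. Tumors also had the lowest means of Cldn7 (624 ± 83.2 in WT, 558 ± 7.96 in Mtg16T/T) and of Cldn3 (382 ± 106 and 310 ± 22.3), and crypts and tumors cannot be compared free of tissue composition.

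**Figure D1:**
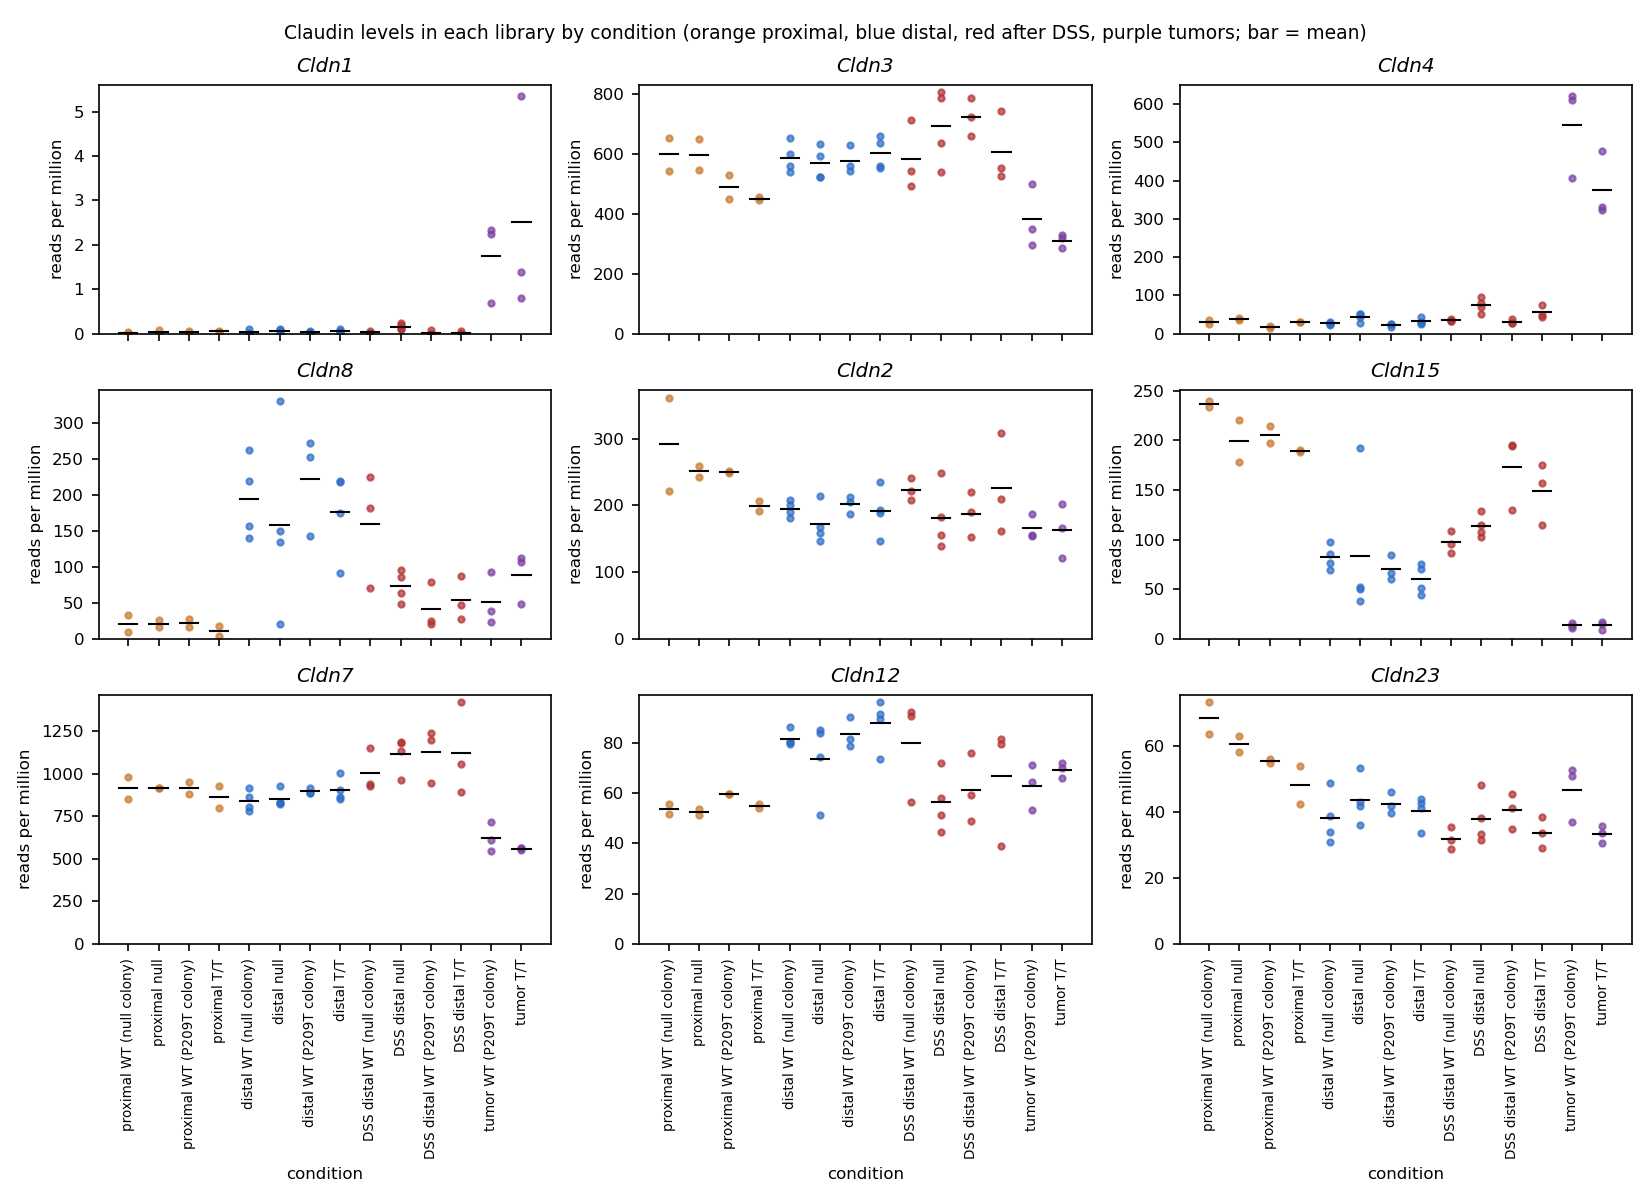
RPM of the 9 claudins in each library, by group, with an axis of its own for each gene that starts at 0; the bars mark group means. Cldn7 and Cldn3 lead in crypts, Cldn4 is above every crypt library in all 6 tumors, and Cldn15 is lowest in tumors.

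Of the comparisons made, that of colon segments called the most claudins. Comparing the 7 WT distal with the 4 WT proximal libraries of both colonies, 5 of the 8 claudins tested passed the test, 2 higher and 3 lower in distal crypts, where 42.1% of the 13841 genes tested passed it (20.1% higher and 22.0% lower). The test was limma on log2(normalized count + 1), with a Benjamini-Hochberg adjusted p under 0.05 over all genes, and Cldn1 was below the minimum mean of 10 normalized counts. The median log2 fold change of the 8 claudins was -0.03, close to that of all genes (0.00).

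The sealing claudin Cldn8 had the largest difference. Its normalized counts were 1430, 422.7, 1268 and 762.3 in the 4 proximal libraries and ran from 6390 through a median of 9714 to 11940 in the 7 distal ones. Every distal library was more than any proximal one, a log2 fold change of 3.34 (SE 0.29, 10.1-fold higher, adjusted p = 6.89e-07). The other gene that was higher distally was Cldn12, at 2242, 2639, 2770 and 2718 in proximal and 3520, 3639 and 3817 (lowest, median, highest) in distal crypts. These groups did not overlap either, with a log2 fold change of 0.50 (SE 0.06, adjusted p = 2.37e-05).

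Both pore formers were lower in distal crypts. Cldn15 was at 10398, 11053, 9170 and 9766 proximally and at 2635, 3456 and 4562 (lowest, median, highest) distally, with no overlap, a log2 fold change of -1.58 (SE 0.13, 2.99-fold lower, adjusted p = 3.14e-07). Cldn2 was at 15685, 10489, 11692 and 11284 proximally and at 8014, 8994 and 9407 distally, also without overlap (-0.47, SE 0.09, adjusted p = 0.00113). Cldn23, the claudin of surface cells, was at 3188, 3008, 2549 and 2558 proximally and at 1349, 1757 and 2282 distally. Its groups were apart as well (-0.68, SE 0.13, adjusted p = 0.000721).

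The most abundant sealing claudins were not separated by segment. Cldn3 averaged 25917 ± 2761 in distal and 24871 ± 4284 in proximal crypts (log2 fold change 0.07, 95% interval -0.16 to 0.30, adjusted p = 0.648), and Cldn7 38274 ± 2783 and 41818 ± 3889 (-0.13, interval -0.30 to 0.05, adjusted p = 0.230). Cldn4 averaged 1110 ± 203 and 1081 ± 405 (0.09, interval -0.34 to 0.53, adjusted p = 0.747). For these 3 genes the groups overlapped.

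Library names start with 1 of 6 numbers, whose meaning the labels do not give and which may mark batches. Within the 2 distal and 2 proximal libraries that share a number, the log2 fold changes were 3.47 for Cldn8 (adjusted p = 0.0254), 0.62 for Cldn12 (0.0330), -1.38 for Cldn15 (0.00498), -0.82 for Cldn23 (0.116) and -0.48 for Cldn2 (0.229), so that the last 2 no longer passed and 3 of 8 claudins were called, beside 13.2% of all genes in that fit. With the number as a covariate in all 11 libraries all 5 passed, beside 23.0% of all genes. Each other number held only proximal or only distal WT libraries. That fit therefore takes its fold changes from the same number-sharing libraries, and the rest add only to its estimate of spread. Markers of other cells moved with segment. Of the T-cell markers 6 of 7 were lower in distal crypts, with a summed level of 11.8 to 47.0 RPM there against 83.6 to 146.9 in proximal crypts. Of the myeloid markers 4 of 7 were higher and 1 lower, with sums of 96.0 to 159.6 against 71.6 to 79.2, and 2 of 6 B-cell and plasma cell markers were lower, with overlapping sums. Within the epithelium, 5 of 10 markers of surface colonocytes were higher and 4 lower. Of the general epithelial markers 4 of 10 were higher and 1 lower, with sums of 20134 to 21949 against 17491 to 19551 RPM. Of the crypt base markers 2 of 10 were higher, and of the 3 endothelial markers tested 1 was higher and 2 lower. Of the smooth muscle markers 1 of 4 was higher, and 1 of 5 each of the fibroblast and ileal markers was lower. The part of these cells in the claudin differences was not tested.

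**Figure D2:**
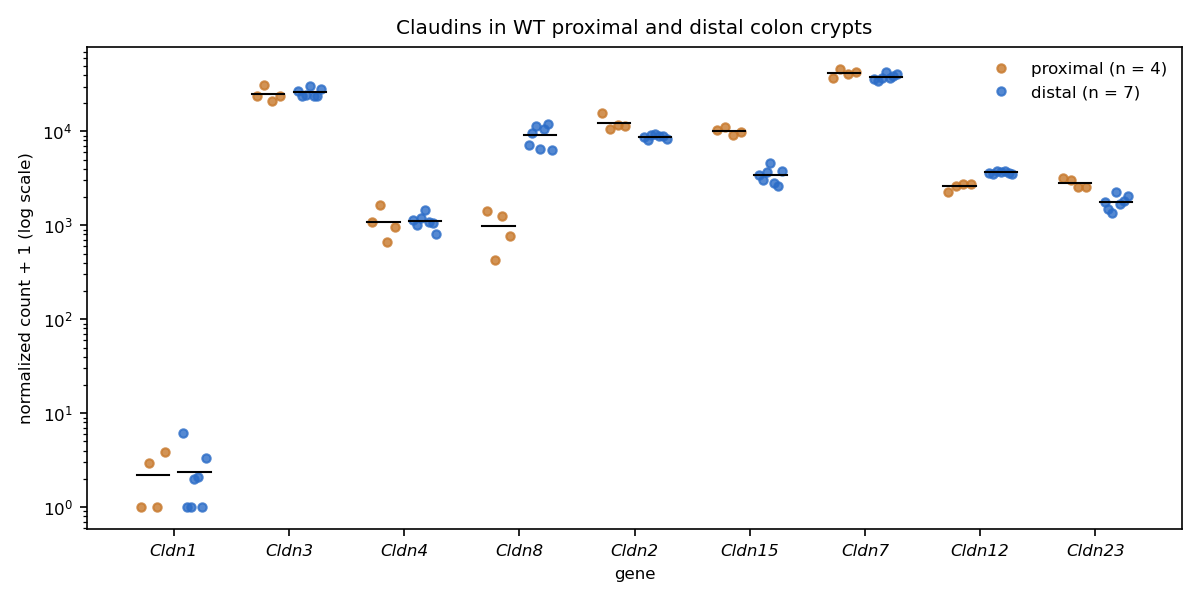
Normalized counts plus 1 of each claudin in the 4 WT proximal and 7 WT distal libraries, on a log axis; the bars mark means. The groups do not overlap for Cldn8, Cldn2, Cldn15, Cldn12 and Cldn23.

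After DSS, WT distal crypts of the P209T colony had less Cldn8 and more Cldn15 than untreated ones. These were the 2 of 8 claudins that passed the test, against 35.6% of 13566 genes, and the median log2 fold change of the 8 was 0.17 beside 0.00 over all genes. Treated and untreated libraries carry different name numbers throughout, so treatment and that number cannot be told apart. Cldn15 was at 3041, 2830 and 3994 normalized counts in untreated and at 9412, 9647 and 6182 in treated mice. All 3 treated libraries were higher, with a log2 fold change of 1.34 (SE 0.22, 2.54-fold higher, adjusted p = 0.0108). Cldn8 was at 11660, 12825 and 6809 before and at 1175, 1007 and 3761 after DSS. Again the groups were apart, at -2.61 (SE 0.52, 6.11-fold lower, adjusted p = 0.0160). On recovered reads edgeR and DESeq2 each called 3 claudins, Cldn3 being the third (edgeR 0.42, adjusted p = 0.0488, DESeq2 0.36, adjusted p = 0.0405), beside 32.2% and 44.1% of all genes.

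The DSS replicate 3 library lay nearest to untreated crypts for both genes. Without it 6 of 8 claudins passed, a share close to the 66.9% of all genes called by that fit, the others being Cldn3 (0.45, adjusted p = 0.00512), Cldn4 (0.56, adjusted p = 0.0298), Cldn7 (0.51, adjusted p = 0.00118) and Cldn12 (-0.57, adjusted p = 0.00143). Without untreated replicate 1, untreated replicate 2 or DSS replicate 1, none passed, beside 5.03%, 0.00737% and 3.62% of all genes. The adjusted p-values were then 0.0539, 0.0567 and 0.0567 for Cldn15 and 0.0658, 0.0707 and 0.0728 for Cldn8. The log2 fold changes stayed between 1.23 and 1.55 for Cldn15 and between -3.21 and -2.26 for Cldn8, whichever library was left out. With all libraries, Cldn3 was at 25765, 25547 and 29965 before and at 35042, 38967 and 31339 after DSS, apart but short of the threshold (0.37, SE 0.13, adjusted p = 0.0568). For Cldn7 (0.37, adjusted p = 0.0773), Cldn12 (-0.42, adjusted p = 0.0841) and Cldn4 (0.45, adjusted p = 0.127) the groups did not overlap but the test was missed. Cldn2 (-0.07, 95% interval -0.41 to 0.27) and Cldn23 (-0.03, interval -0.39 to 0.33) overlapped.

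Other properties differed by treatment in these libraries. The slope of log2 level on transcript length was -0.218, -0.312 and 0.0701 per doubling of length in the 3 DSS libraries and 0.147 to 0.166 in the untreated ones, and Mki67, a proliferation gene, was at 534.4 to 1721 against 12664 to 24710. With the length trend removed, an alternative added after seeing the data, Cldn8 was at -2.77 (adjusted p = 0.0142) and Cldn15 at 1.09 (adjusted p = 0.00833). The fibroblast markers Col1a1, Col3a1 and Pdgfrb were higher after DSS, 3 of the 5 tested of that list, with a summed level of 13.5 to 19.2 against 5.00 to 7.93 RPM. Markers of the crypt base and progenitors summed to 559.8 to 767.9 against 1052 to 1437 RPM (2 of 10 lower, 1 higher) and general epithelial markers to 23233 to 30469 against 20134 to 21949 (4 of 10 higher). Of the myeloid markers 2 of 8 were higher, and of the surface colonocyte markers 2 of 10 were higher and 1 lower, with overlapping sums. B-cell and plasma cell markers summed to 4.37 to 8.18 against 9.31 to 18.6 RPM, with 0 of 5 called. The part of all these cells was not tested. Of the genes of the distal segment, Hoxd13 was at 1697 to 3657 normalized counts after DSS against 3864 to 4366 before, Anxa3 at 4247 to 8360 against 9565 to 11036, and Hoxb13 at 20558 to 24400 against 18150 to 19303. Of those of the proximal segment, Prap1 was at 42.4 to 69.3 against 22.5 to 31.5 and Hoxb6 at 10.4 to 32.0 against 35.2 to 45.0. Hoxd12, Hoxd10, Atp12a and Abca12 overlapped, and the part of segment was not tested. In the null colony, where no table sets DSS against baseline, Cldn8 averaged 159 ± 80.2 (n = 3) RPM in treated and 195 ± 56.7 (n = 4) in untreated WT distal crypts, and Cldn15 97.1 ± 11.2 and 82.0 ± 12.2. In the P209T colony the same values were 41.3 ± 32.9 and 223 ± 69.9 for Cldn8, and 173 ± 37.2 and 70.0 ± 12.3 for Cldn15 (n = 3 each). The treated WT libraries of the 2 colonies also differed in Mki67, at 12217 to 26162 normalized counts in the null colony, and the difference between colonies was not tested.

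**Figure D3:**
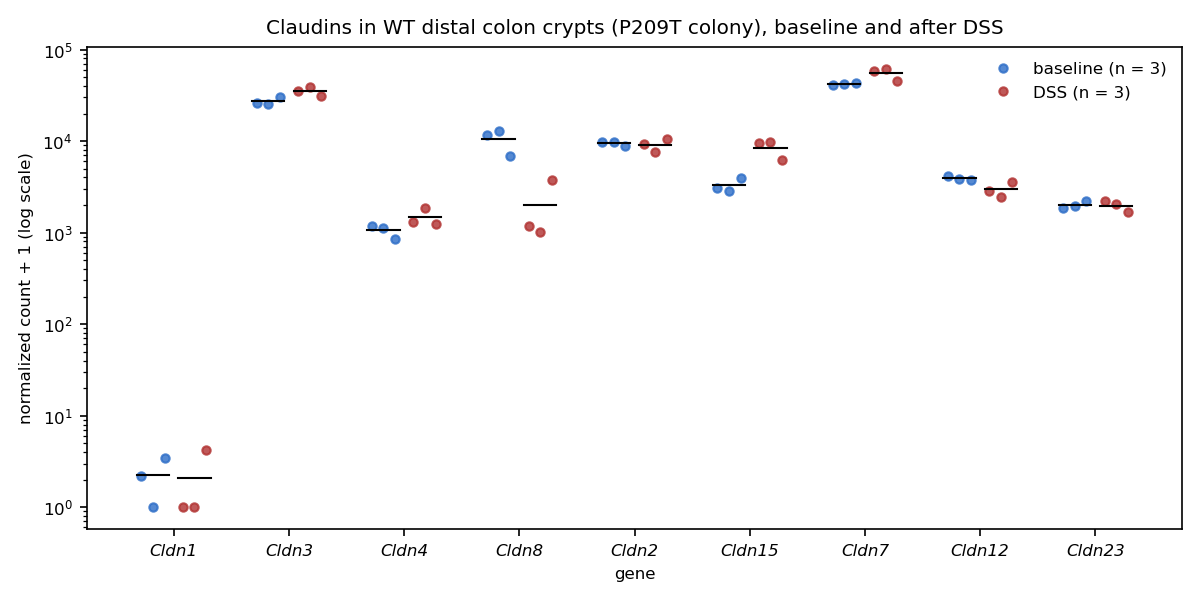
Normalized counts of each claudin in WT distal crypts of the P209T colony before and after DSS (n = 3 each), on a log axis; the bars mark means. Cldn8 is lower and Cldn15 higher in all 3 treated libraries, with DSS replicate 3 nearest to the untreated ones.

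Fewer claudins were called by genotype. In the 7 comparisons of mutant with WT, limma called 0 of the 8 claudins tested (9 in tumors) in any, beside 0.0645% of all genes for Mtg16-/- in proximal crypts, 0.239% in distal crypts and 0.629% after DSS, and 0.232%, 0.0369%, 0% and 0% for Mtg16T/T in proximal crypts, distal crypts, after DSS and in tumors. At an unadjusted p under 0.05, limma had 0, 1 (3 without replicate 2) and 3 claudins for Mtg16-/-, in the same order, beside 5.96%, 4.63% (6.02%) and 12.4% of all genes. For Mtg16T/T it had 2, 0, 1 and 2, beside 12.0%, 4.65%, 8.77% and 2.47%. After DSS same-numbered libraries of the null colony deviated together, although no label pairs them. With the replicate number as a block, limma called 3 of 8 claudins for Mtg16-/- there, beside 8.78% of all genes. On recovered reads, edgeR called 0 in the 5 comparisons where it was run, and DESeq2 called 2, both in Mtg16-/- crypts after DSS, where it called 5.02% of all genes. Leaving out the library labelled distal Mtg16-/- replicate 2, limma called Cldn4 in distal crypts, where 1.06% of genes were then called.

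**Figure D4:**
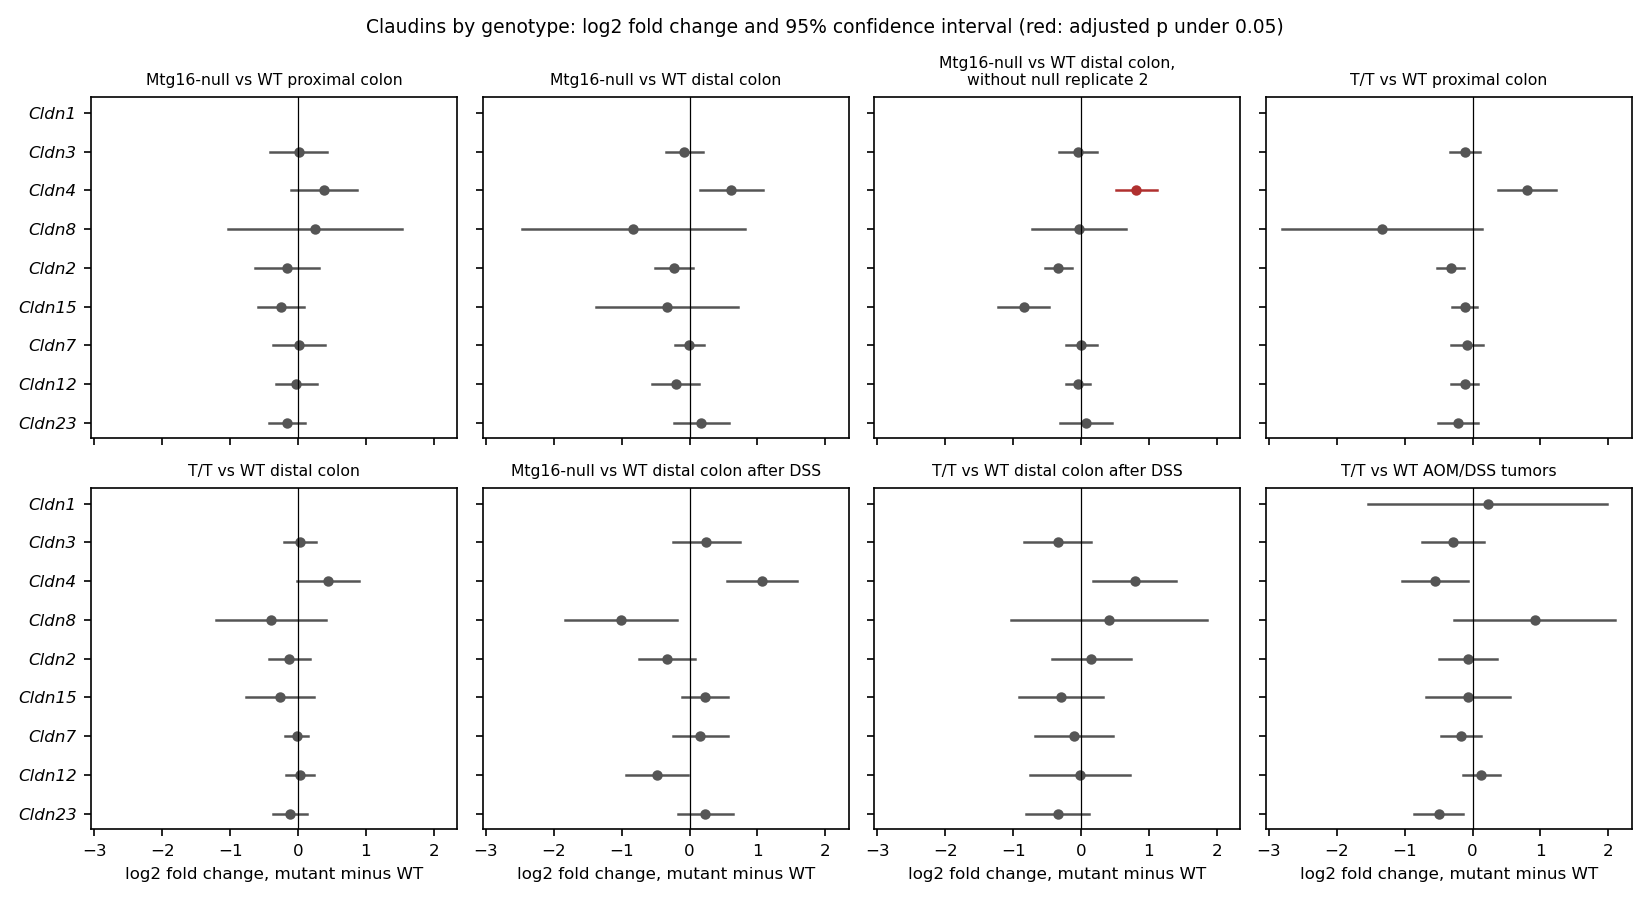
Log2 fold change of mutant over WT for each claudin in the 7 genotype comparisons and in distal Mtg16-/- without replicate 2, with 95% intervals from limma. Only Cldn4 in distal Mtg16-/- without replicate 2 has an adjusted p under 0.05, shown in red.

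Cldn4 is described first, and it was singled out after its values were seen. Its mean was higher in the mutant than in WT in all 6 crypt comparisons and lower in the mutant tumors. The pore formers Cldn2 and Cldn15 were likewise on one side in 6 of 7 comparisons, with negative log2 fold changes except for Cldn2 in Mtg16T/T (0.15) and Cldn15 in Mtg16-/- (0.23) after DSS. How many of all genes kept the same sign over these comparisons is not given, so such counts are a description only. In distal crypts the normalized counts of Cldn4 were 1164, 1037, 1239 and 1505 in WT and 2297, 2227 and 1960 in Mtg16-/- replicates 1, 3 and 4, while replicate 2 had 1248. With all 4 the groups overlapped (log2 fold change 0.62, SE 0.20, adjusted p = 0.610). Without replicate 2 the 3 Mtg16-/- libraries were above all WT, at 2161 ± 178 against 1236 ± 197 (0.82, SE 0.13, 1.76-fold, adjusted p = 0.0278). With the name number as a covariate this fit gave 0.79 (SE 0.13, adjusted p = 0.0527).

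After DSS, Cldn4 was at 1951, 2073 and 1745 in WT and at 4030, 2645, 4449 and 5500 in Mtg16-/-. All 4 mutant libraries were above the WT ones, with a log2 fold change of 1.07 (SE 0.23, 2.09-fold) that missed the threshold (adjusted p = 0.0728). With the replicate number as a block, in which same-numbered libraries are compared, Cldn4 passed at 0.92 (SE 0.17, adjusted p = 0.0138). Mtg16-/- replicate 4, the highest library, has no WT library of its number and does not enter that estimate. It rests on the 3 numbers that both genotypes share, as do the blocked values of the other claudins. Cldn4 also passed with DESeq2 (1.12, adjusted p = 0.000561) and without Mtg16-/- replicate 2 (1.27, adjusted p = 0.0216).

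In Mtg16T/T crypts the mean of Cldn4 was again the higher one. In proximal crypts they were 639.3 and 921.0 in WT and 1363 and 1313 in Mtg16T/T, and after DSS 1402, 1988 and 1321 against 3509, 2401 and 2268. Neither pair of groups overlapped, but neither difference passed (0.80, SE 0.18, adjusted p = 0.199, and 0.79, SE 0.26, adjusted p = 0.414). In the libraries after DSS, where limma called 0 genes by this genotype, some segment genes lay apart: Hoxb13 was at 9518 to 19012 in Mtg16T/T against 21706 to 26309 in WT, Hoxd12 at 40.8 to 174.5 against 177 to 298, and the distal Atp12a at 7282 to 21416 against 29004 to 61809. Prap1 was at 77.3 to 122 against 44.8 to 74.7, whereas Hoxd13, Hoxd10, Hoxb6, Abca12 and Anxa3 overlapped. B-cell and plasma cell markers summed to 15.9 to 17.4 against 4.37 to 8.18 RPM, with 0 of 6 called, and the part of segment and of these cells was not tested. In distal crypts WT had 1027, 986.5 and 740.1 and Mtg16T/T 1658, 1120, 1262 and 1001, with overlap (0.45, SE 0.20, adjusted p = 0.863). In Mtg16-/- proximal crypts the values 1720 and 1994 overlapped those of WT, 1166 and 1735 (0.38, SE 0.20, adjusted p = 0.880).

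Tumors went the other way. Cldn4 was at 19719, 29787 and 30507 in WT and at 16057, 15662 and 22624 in Mtg16T/T, with overlap (-0.55, SE 0.21, adjusted p = 0.998). The Mtg16T/T effect in tumors minus that in untreated distal crypts was -0.997 for Cldn4 (SE 0.29, adjusted p = 0.820), so that this difference did not pass. None of the 7 differences between effects that were tested, across segments, DSS, genotypes and tumors, was called for any claudin, with or without replicate 2. Over all genes these tests called 0, except for 1 of 13424 (0.00745%) in the Mtg16-/- effect between segments without replicate 2.

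**Figure D5:**
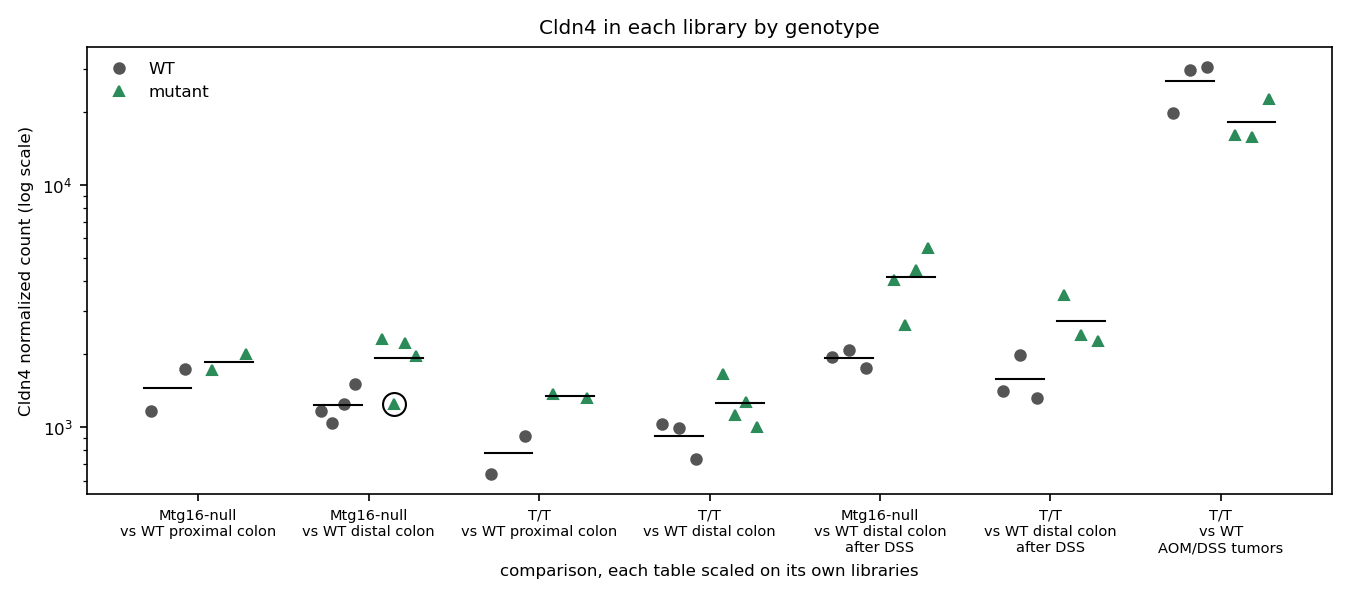
Cldn4 normalized counts in each library of the 7 genotype comparisons, on a log axis, with circles for WT, triangles for mutants and bars for means; the ring marks the library labelled distal Mtg16-/- replicate 2. The mutant mean is higher in the 6 crypt comparisons and lower in tumors.

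Of the other claudins, Cldn8 and Cldn12 were also called in Mtg16-/- crypts after DSS once the replicate number was a block, the fit that called 3 claudins in place of 0 and 1271 genes in place of 91. Cldn8 was at 4013, 12570 and 9876 in WT and at 2739, 5038, 4778 and 3649 in Mtg16-/-, so that the lowest WT library lay among the mutants. Its log2 fold change was -1.01 (SE 0.37, adjusted p = 0.285) without the block and -0.97 (SE 0.14, adjusted p = 0.00454) with it. DESeq2 called it as well (-1.12, adjusted p = 0.0417), as did limma without WT replicate 1 (-1.50, adjusted p = 0.0441). Cldn12 was at 3231, 5064 and 5005 in WT and at 2544, 3806, 3247 and 2948 in Mtg16-/-, with overlap, a log2 fold change of -0.48 (SE 0.20, adjusted p = 0.366) that became -0.46 (SE 0.10, adjusted p = 0.0292) with the block. Myeloid marker sums lay apart by genotype in these crypts: they were 249.6 to 529.7 in Mtg16-/- against 170.4 to 229.0 RPM in WT, and 1 of the 8, Lyz2, passed (3.29, adjusted p = 0.0480). Ileal and Paneth cell markers summed to 6.17 to 10.1 against 12.6 to 19.5 RPM, with 1 of 2 lower. Of the general epithelial markers 1 of 10 was higher, as was 1 of 10 of the surface colonocyte markers. The sums of these and of the other cell types overlapped. The part of these cells was not tested. Some genes that mark the colon segments, picked after their values were seen, also lay apart by genotype. The distal Hoxd13 was at 815.5 to 2864 normalized counts in Mtg16-/- against 3321 to 3787 in WT, and Hoxd12 at 22.9 to 88.4 against 129 to 227. Hoxd10 was at 12.1 to 93.7 against 144.6 to 166, and the proximal Prap1 and Abca12 lay above every WT library, whereas Hoxb13 (12904 to 18928 against 16640 to 29049), Hoxb6 and the distal Atp12a and Anxa3 overlapped. Cldn8 and Cldn12 are also the claudins that were higher in distal than in proximal WT crypts, and the part of segment in their differences by genotype was not tested. Cldn1 lay below the filter in this table, at 0, 0.977 and 3.65 in WT and 6.03, 10.1, 13.6 and 5.26 in Mtg16-/-, values of a few reads that did not overlap and were not tested.

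The pore formers gave no call by genotype. In distal crypts Cldn15 was at 3538, 3138, 3803 and 4667 in WT and at 2373, 1657 and 2298 in Mtg16-/- replicates 1, 3 and 4, and at 8754 in replicate 2, a value close to those of proximal crypts. Replicate 2 decided the comparison: with it the log2 fold change was -0.33 (SE 0.46, adjusted p = 1.00), and without it the groups did not overlap and the value was -0.85 (SE 0.16, adjusted p = 0.0568). Within the libraries sharing a name number it was -1.11 (adjusted p = 0.628) for replicates 3 and 4 of both genotypes and 0.45 (adjusted p = 0.862) for replicates 1 and 2. Cldn2 was at 8815, 8230, 9294 and 9624 in WT and at 6686, 9748, 6973 and 7701 in Mtg16-/-, replicate 2 again being the highest. Without it the groups were apart at -0.34 (SE 0.09, adjusted p = 0.188).

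Replicate 2 also decided Cldn8 in these crypts. Cldn8 was at 7285, 9976, 11727 and 6713 in WT, at 6124, 14479 and 6933 in Mtg16-/- replicates 1, 3 and 4, and at 934.6 in replicate 2. The log2 fold change was -0.83 (95% interval -2.47 to 0.81) with that library and -0.03 (-0.72 to 0.66) without it. Cldn12 went from -0.20 (-0.55 to 0.14) to -0.04 (-0.22 to 0.14), its lowest value, 2330, being that of replicate 2. Cldn23 went from 0.17 (-0.23 to 0.58) to 0.07 (-0.31 to 0.45), and its groups overlapped either way.

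In Mtg16-/- proximal crypts Cldn15 averaged 9763 ± 1633 against 11500 ± 404 in WT and Cldn23 2971 ± 122 against 3323 ± 163 (n = 2 each). These 2 were below every WT library, but neither difference was called, with log2 fold changes of -0.25 (95% interval -0.59 to 0.09) and -0.16 (-0.43 to 0.11). The share of all genes lying apart at 2 libraries a group is not given. The groups of the other claudins overlapped, and their log2 fold changes were 0.25 (-1.03 to 1.54) for Cldn8, -0.16 (-0.63 to 0.31) for Cldn2, 0.02 (-0.37 to 0.40) for Cldn7, 0.01 (-0.42 to 0.43) for Cldn3 and -0.02 (-0.32 to 0.27) for Cldn12. B-cell and plasma cell markers summed to 43.5 to 49.4 against 11.5 to 28.9 RPM there, and myeloid markers to 73.1 to 96.6 against 71.6 to 72.3. General epithelial markers summed to 19634 to 21086 against 17491 to 19208. The sums of crypt base, fibroblast, endothelial and ileal markers were also higher, whereas those of surface colonocytes, smooth muscle and T cells overlapped. No marker was called, and the part of these cells was not tested. In Mtg16T/T distal crypts every claudin overlapped between genotypes. There the log2 fold changes were -0.40 (-1.21 to 0.41) for Cldn8, -0.27 (-0.77 to 0.23) for Cldn15, -0.13 (-0.43 to 0.17) for Cldn2, -0.12 (-0.36 to 0.13) for Cldn23 and 0.03 (-0.17 to 0.24) for Cldn12.

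The remaining claudins after DSS overlapped between genotypes too. In Mtg16-/- the log2 fold changes were -0.33 (-0.74 to 0.09) for Cldn2, 0.23 (-0.10 to 0.56) for Cldn15, 0.23 (-0.17 to 0.64) for Cldn23, 0.25 (-0.24 to 0.74) for Cldn3 and 0.16 (-0.25 to 0.56) for Cldn7. In Mtg16T/T they were 0.41 (-1.03 to 1.85) for Cldn8, 0.15 (-0.43 to 0.74) for Cldn2, -0.30 (-0.92 to 0.33) for Cldn15, -0.35 (-0.80 to 0.11) for Cldn23 and -0.01 (-0.75 to 0.72) for Cldn12. Cldn1 stayed below the filter in every crypt table, with at most 2.24 normalized counts on average in the untreated groups of the genotype tables.

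In Mtg16T/T proximal crypts Cldn2 was at 9144 and 8617, below 11365 and 10854 in WT (-0.32, SE 0.08, adjusted p = 0.227). Cldn8 there was at 754.4 and 188.1 against 1232 and 733.3 (-1.33, SE 0.61, adjusted p = 0.451), and it passed when Mtg16T/T replicate 1 was left out (-2.33, adjusted p = 0.0470), a fit in which the lone mutant library is assumed to vary like the WT pair. Of the other claudins of these proximal crypts, Cldn23 (-0.21, -0.51 to 0.09), Cldn12 (-0.12, -0.32 to 0.09), Cldn15 (-0.12, -0.31 to 0.07) and Cldn3 (-0.11, -0.33 to 0.11) were also lower in both mutant libraries than in both WT ones, without a call. With 2 libraries a group, separate groups arise readily, and the share of all genes lying apart is not given. Cldn7 overlapped (-0.09, -0.32 to 0.15). Segment genes lay apart in this table as well: the distal Hoxb13 was at 0 to 11.1 in Mtg16T/T against 27.1 to 249.1 in WT, Atp12a at 5.29 to 8.05 against 51.3 to 133.8 and Anxa3 at 768.1 to 843 against 1124 to 1173. The proximal Hoxb6 was at 2774 to 3123 against 1784 to 2509, whereas the proximal Prap1 was lower in Mtg16T/T (1598 to 2082 against 2160 to 2401) and Abca12 overlapped. Myeloid markers summed to 56.6 to 61.3 against 75.5 to 79.2 RPM and T-cell markers to 97.5 to 101.2 against 108.3 to 146.9, with none called, and the part of segment and of these cells was not tested. In tumors Cldn23 was at 1793, 2442 and 2639 in WT and at 1485, 1639 and 1695 in Mtg16T/T, without overlap but far from the threshold (-0.49, SE 0.16, adjusted p = 0.998). Cldn8 (4508, 1852 and 1161 against 5422, 5207 and 2313) and Cldn1 (113.8, 32.6 and 111.8 against 67.1, 259.6 and 37.8) overlapped between genotypes, at 0.92 (-0.27 to 2.10) and 0.22 (-1.54 to 1.98). So did Cldn3 (-0.29, -0.74 to 0.17), Cldn7 (-0.17, -0.47 to 0.12), Cldn12 (0.13, -0.14 to 0.40), Cldn2 (-0.07, -0.50 to 0.36) and Cldn15 (-0.07, -0.69 to 0.55).

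For the abundant Cldn7 the 95% interval of the log2 fold change was -0.21 to 0.21 in distal Mtg16-/- crypts (-0.22 to 0.23 without replicate 2) and -0.19 to 0.15 in distal Mtg16T/T crypts. For Cldn3 it was -0.34 to 0.19 (-0.32 to 0.24 without replicate 2) and -0.21 to 0.27. After DSS the intervals in Mtg16T/T were -0.68 to 0.47 for Cldn7 and -0.83 to 0.14 for Cldn3. The median over the claudins tested lay between -0.14 (distal Mtg16-/-, or -0.04 without replicate 2) and 0.19 (Mtg16-/- after DSS) in the 7 genotype comparisons, where the median of all genes lay between -0.01 and 0.03.

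Of the other claudin genes, Cldn14, known from the inner ear and kidney, differed by segment by more than any of the 9, at 587 ± 109 in WT distal and 35.8 ± 5.67 in WT proximal crypts (3.99, SE 0.17, adjusted p = 5.70e-10). After DSS it was at 512.9 ± 131 in Mtg16-/- against 953.7 ± 407 in WT (-0.83, adjusted p = 0.327) and at 406.5 ± 116 in Mtg16T/T against 803.9 ± 60.6 (-1.02, adjusted p = 0.319), neither of which passed. Cldn9, Cldn10 and Cldn34c1 passed the filter in some crypt tables, at means under 50 normalized counts, and were not called. In tumors Cldn5, the claudin of endothelium, Cldn6, Cldn11 and Cldn18 also passed the filter and were not called by genotype. Cldn5 was at 434 ± 184 in Mtg16T/T and 364 ± 115 in WT tumors, and at no more than 12.1 in any crypt library of the genotype tables.

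Among 33 other tight junction genes, of scaffold, marginal and polarity proteins, segment again had the largest count. By segment 16 of 29 were called, where 42.1% of all genes were, 20.1% higher and 22.0% lower. Of the 29 tested, 12 were higher in distal crypts, led by Lsr (1.34), the lipolysis-stimulated receptor of tricellular junctions, Cgnl1 (1.08), a cingulin-like protein, and Tjp1 (0.67), which encodes the scaffold ZO-1. A further 4 were lower, led by Mpdz (-4.88), a multi-PDZ scaffold, Ildr1 (-0.70) and Prkcz (-0.58), a polarity kinase. After DSS in WT 8 of 28 were called, where 35.6% of all genes were. Of these, 2 were higher, Sympk (0.45) and Vasp (0.43), and 6 were lower, led by Mpp5 (-3.57), Magi3 (-1.85) and Tjp1 (-1.52). The part of the length trend of these libraries, given above, was not tested for these genes. None of the 28 to 33 tested was called in any genotype comparison, also without replicate 2.

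Over the 14 group means, each claudin was also set beside the 9461 genes with at least 10 RPM, and the Pearson r of log2 levels is given as a description only, since the groups share tissue, genotype and library-name numbers. Cldn4 was most like Tnfrsf12a (r = 0.988), the receptor of the cytokine TWEAK, and Cldn1 most like Serpina3n (0.995). Cldn7 was most like Ndufa8 (0.988), a subunit of respiratory complex I, Cldn3 like Tmub1 (0.975), Cldn8 like Elovl7 (0.979), a fatty acid elongase, and Cldn15 like Pgm2 (0.989), a phosphoglucomutase. Cldn12 was most like Snx25 (0.945), Cldn23 like Ifit1 (0.864), an interferon-induced gene, and Cldn2 like Hacd1 (0.867), the last becoming Plet1 (0.857) without replicate 2. Among the claudins themselves the highest values were for Cldn1 with Cldn4 (0.935), Cldn3 with Cldn7 (0.912) and Cldn8 with Cldn12 (0.909), and the lowest for Cldn1 with Cldn15 (-0.874). For Cldn1 every r mainly sets the tumor groups, at 1.75 and 2.51 RPM, against crypt groups near no reads, at most 0.158 RPM.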

How the data were processed

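Polyadenylated RNA of crypts and tumors was sequenced as paired ends. The authors trimmed reads with fastp 0.20.0, quantified the GENCODE mouse transcriptome with Salmon 1.3.0, imported estimates with tximeta and normalized each table with DESeq2 1.26.0 in R 3.6.3. The deposited unit is therefore a signal of size-factor-normalized counts per gene. The tables also hold the authors' fold changes and p-values, which were not used. Each of the 59 library columns was mapped by its name.

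Groups were compared within a table with limma 3.58.1 (R 4.3.3; trended variance) on log2(normalized count + 1), for genes with a mean of at least 10, two-sided, with Benjamini-Hochberg adjustment over all genes. Differences between effects used both tables' standard errors. In 7 tables every value was a whole multiple (100% within 0.1 read) of 1 step per library, which gave reads for edgeR 4.0.16 and DESeq2 1.42.0. These statistics were tested on simulated data. Replicates were labelled as separate samples, and p-values measure only the spread between them. Whether the values of groups overlap is a description, for which the share of all genes is not given.

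All 9 claudins are described in every comparison, other claudins that pass the filter are named once, and other junction genes as counts with at most 3 called per direction. Members and lists were chosen with earlier results of these data known. No label pairs the libraries of WT and Mtg16-/- crypts after DSS. Same-numbered libraries there deviated together (correlations 0.554, 0.460 and 0.317). The pairing is inferred from these same values, so the block is an alternative. For Mtg16T/T and WT after DSS the correlations were -0.0294, -0.708 and -0.766. In the null colony after DSS the length slopes of WT and Mtg16-/- were -0.0854 and -0.160 for replicate 1. They were 0.148 and 0.0858 for replicate 2, and 0.0843 and -0.000401 for replicate 3. Their part was not tested. Other alternatives were a pseudocount of 0.1, no filter, total-count scaling, colony or name-number covariates, leaving out each library and, added later, removing a length trend (spline with 3 degrees of freedom).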

Additional observations from a re-analysis of the deposited data

Results flagged for a closer look

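Among 48 groups of 4 to 10 libraries, 2 held a library far from the others by Dixon's criterion, which chance meets in about 1 in 20 groups. Cldn15 in distal Mtg16-/- crypts was at 8754 normalized counts in replicate 2, with the nearest library at 2373 and the farthest at 1657, a gap of 0.899 of the range. This is the library whose Hox genes went against its segment label. Cldn7 in the same group was highest in replicate 3, at 40570 with the nearest at 38068 and the farthest at 37743, a gap of 0.885 of a narrow range.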

How the results depend on the processing

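Counts of claudins called changed in these settings. For DSS in WT both edgeR and DESeq2 called 3 in place of 2. By segment the count fell from 5 to 3 within the libraries sharing 1 name number. In Mtg16-/- crypts after DSS it went from 0 to 3 with the replicate block and to 2 with DESeq2. The replicate block changed the call of no other claudin. Leaving out 1 library at a time gave 5 to 5 claudins by segment, 0 to 6 for DSS in WT, 0 to 1 for Mtg16-/- in distal crypts and after DSS and for Mtg16T/T in proximal crypts, and 0 to 0 for the differences between effects. An arm left with 1 library was assumed to vary like the other group.

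Directions turned only where the difference was not called. With the replicate block, Cldn3 went to -0.0041 by segment and -0.036 in distal Mtg16T/T. With total-count scaling, Cldn3 went to -0.0038 in proximal Mtg16-/-, Cldn7 to 0.024 in distal Mtg16-/- and 0.015 in distal Mtg16T/T, and Cldn12 to 0.066 in Mtg16T/T after DSS, where that scaling put the median of all genes at 0.11. With the length trend removed, Cldn7 went to 0.030 in distal Mtg16-/- and 0.058 in Mtg16T/T after DSS, and Cldn3 to -0.0074 in distal Mtg16T/T. On reads, Cldn12 in Mtg16T/T after DSS was at 0.050 by edgeR and 0.046 by DESeq2, and Cldn23 at 0.026 by edgeR for DSS in WT. Within name numbers, distal Mtg16-/- gave 0.18 for Cldn8 and -0.024 for Cldn23 in one set, and 0.45 for Cldn15 and 0.062 for Cldn7 in the other. The cause was not tested.

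Leaving out single libraries also turned signs, over these ranges of log2 fold change. By segment they were -0.011 to 0.18 for Cldn3 and -0.12 to 0.31 for Cldn4. For DSS in WT they were -0.18 to 0.056 for Cldn2 and -0.12 to 0.087 for Cldn23. In proximal Mtg16-/- they were -0.18 to 0.20 for Cldn3, -0.63 to 1.14 for Cldn8, -0.46 to 0.14 for Cldn2, -0.14 to 0.17 for Cldn7 and -0.13 to 0.086 for Cldn12, and for Cldn7 in distal Mtg16-/- -0.042 to 0.060. In Mtg16T/T they were -0.18 to 0.0067 for Cldn7 in proximal crypts and -0.048 to 0.0068 in distal crypts, where Cldn3 ran from -0.036 to 0.10. After DSS they were -0.024 to 1.00 for Cldn8, -0.062 to 0.34 for Cldn2, -0.32 to 0.045 for Cldn7 and -0.20 to 0.30 for Cldn12. In tumors they were -0.56 to 0.81 for Cldn1, -0.25 to 0.13 for Cldn2 and -0.26 to 0.22 for Cldn15.

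Counts over all genes moved more. By segment 5824 became 3189 with the name number as covariate and 1827 within 1 number. DSS in WT gave 4833, or 2679 with the block and 1 to 9073 without single libraries. For Mtg16-/-, proximal crypts gave 9 (32 blocked, 6 to 18 without single libraries), distal crypts 33 (1 blocked, 8 with the covariate, 106 with it and without replicate 2, 1 and 0 within numbers, 200 by DESeq2, 2 to 146 without single libraries) and DSS 91 (1271 blocked, 162 with the length trend removed, 727 by DESeq2, 18 to 106 without single libraries). For Mtg16T/T, proximal crypts gave 32 (2 unfiltered, 151 blocked, 0 to 140 without single libraries), distal crypts 5 (0 blocked, 53 by DESeq2, 0 to 8), DSS 0 (334 by DESeq2, 0 to 3) and tumors 0 (1 unfiltered, 24 by DESeq2, 0 to 1). At 2 to 4 libraries a group, differences of the size of the standard errors given could not be detected, and depth did not limit any claudin but Cldn1. Outside the comparison after DSS in the null colony, the correlations of same-numbered libraries ran from -0.766 to 0.369. By segment, the null-colony libraries with adjoining names were not matched, since they carry different replicate numbers.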
